A study of Mus musculus with 10 samples.

Results

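The 10 genes described here encode the machinery that takes a cell from G1 into S phase: the D cyclins Ccnd2 and Ccnd3, their kinases Cdk4 and Cdk6, the E cyclins Ccne1 and Ccne2, their kinase Cdk2, and the inhibitors Cdkn1b, Cdkn2c and Cdkn2d. They are named as members of 1 pathway by a rule that uses no measured value, although earlier results of these data were known when it was written, and are 10 of the 54408 genes to which the deposited transcripts of this RNA-seq series were summed with GENCODE M21. D cyclins accumulate when growth factors, cytokines or antigen act on a cell, bind CDK4 or CDK6 and start the phosphorylation of the retinoblastoma protein, which frees E2F transcription factors. E2F raises the E cyclins, and cyclin E with CDK2 completes the phosphorylation and helps to start DNA replication. Inhibitors of the INK4 family, such as the products of Cdkn2c and Cdkn2d, bind CDK4 and CDK6, whereas CIP/KIP inhibitors such as the product of Cdkn1b bind cyclin and CDK together, and activated T cells use both kinds of brake as they divide and stop dividing.

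The cells were CD8 T cells with the P14 T cell receptor, a transgenic receptor for the gp33 peptide, recovered from subcutaneous tumours of B16-gp33, a mouse melanoma line that makes this peptide. The strain given is C57BL/6. The comparison asks how loss of NFAT5, a transcription factor of the Rel family, alters the RNA of tumour T cells. Donor T cells of both groups carried Nfat5 alleles flanked by loxP sites. WT cells lacked Cre recombinase, and NFAT5 KO cells had 1 CD4-Cre allele, in which the Cd4 promoter drives Cre and which acts during thymic development, so the floxed gene was open to deletion in the T lineage before the cells were activated. T cells of both groups were stimulated in vitro for 48 h, 5000000 were transferred into tumour-bearing mice, and tumour CD8 T cells were sorted on day 7 after transfer. The labels do not state whether the sort separated donor cells from CD8 T cells of the host, nor the age or genotype of the recipients. There were 5 WT and 5 NFAT5 KO libraries, and their titles begin with 1 of 2 prefixes that the labels do not explain, 678 on 2 WT and 3 NFAT5 KO libraries and 679 on the remaining 3 WT and 2 NFAT5 KO. No label says that libraries came from separate mice, so p-values measure the spread between libraries, which may be technical.

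Library totals lay between 22444310 and 32001285 estimated counts. Levels are given as CPM (estimated counts scaled with TMM factors to a common library total of 1000000), and values are listed in the order 678_2, 678_4, 679_3, 679_4, 679_5 for WT and 678_3, 678_5, 678_6, 679_2, 679_6 for NFAT5 KO. Nfat5 itself was at 18.02, 17.2, 18.3, 9.20 and 14.2 CPM in the WT libraries and 12.2, 12.6, 11.6, 26.7 and 11.9 CPM in those labelled NFAT5 KO, and its log2 fold change was -0.04 (adjusted p = 0.957, SE 0.27). The groups overlapped, and NFAT5 KO 679_2 was the highest of all libraries. A sum over the whole gene cannot separate the floxed part from the rest, so this value does not check the genotype labels. Of the 13081 genes that passed the filter on low counts, 442 were higher (3.38%) and 737 lower (5.63%) in NFAT5 KO, 9.01% in all, and the median log2 fold change was 0.02. T cell markers summed to 7484 to 8476 CPM in the WT and 8004 to 8321 CPM in the NFAT5 KO libraries, and 1 of the 7, Cd2, was called higher. Macrophage markers were low and ran lower in NFAT5 KO, summing to 69.5 to 141 CPM across the WT libraries and to 35.9 to 75.2 CPM across the NFAT5 KO libraries, and 1 of the 8 tested was called lower (Adgre1). Of these 8, Itgam had a positive log2 fold change, and those of the rest lay between -3.86 and -0.33, while 3 others of the 11 listed had a mean under 1 CPM and none was at 0 in every library. Dendritic cell markers ran higher, at 49.9 to 147 CPM summed in WT libraries and 119.9 to 192 CPM in NFAT5 KO libraries. These sums rested mostly on Itgax (96.0 and 139.7 CPM on average), beside Xcr1 (5.04 and 10.7) and Zbtb46 (0.99 and 2.13). Flt3 did not pass the filter, and Siglech was at 0. B cell markers (8.41 to 14.4 against 5.15 to 11.001 CPM summed, with Pax5 at 0) and endothelial markers (39.7 to 68.3 against 35.3 to 50.4 CPM summed, with Cdh5 and Kdr at 0) rested mostly on Cd79b and Pecam1 and had lower means in NFAT5 KO. None of the tested genes of these 3 lists was called, and the part of these cell types in the results was not tested. Melanoma markers summed to 0.916 to 4.27 CPM over all libraries, with Sox10 and Slc45a2 at 0 in each, and Cd4 stayed at or under 2.42 CPM.

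All 10 members passed the filter. In NFAT5 KO, 6 of them fell (Ccne1, Ccne2, Cdk2, Cdk4, Cdk6 and Cdkn2c), beside 5.63% of all genes tested, none was called higher, beside 3.38%, and 4 were not called (Ccnd2, Ccnd3, Cdkn1b and Cdkn2d). The edgeR quasi-likelihood test with Benjamini-Hochberg adjustment over all 13081 genes gave these calls at a threshold of 0.05. The unadjusted p was under 0.05 for the same number of members, 6, beside 3041 of the 13081 genes. The median log2 fold change of the members was -0.47, beside 0.02 over all genes tested. The WT and NFAT5 KO libraries did not overlap for 6 members, beside 10.3% of all genes tested, and these were the 6 that fell. In bulk RNA, fewer cells in a given state and less RNA per cell cannot be told apart.

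**Figure D1:**
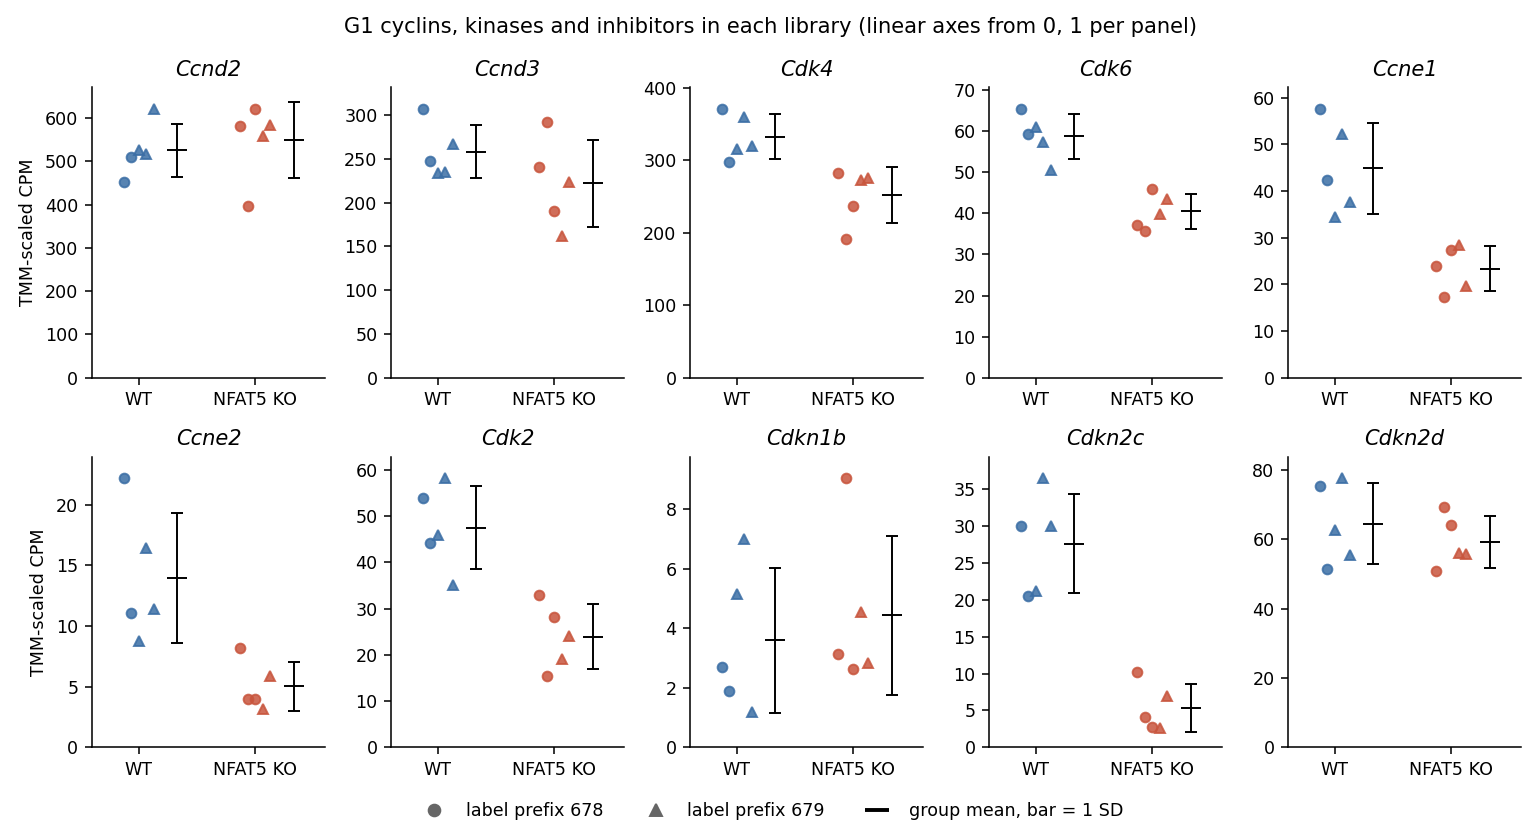
Each point is 1 library, with TMM-scaled CPM on linear axes that start at 0, blue for WT and red for NFAT5 KO, and the symbol gives the label prefix. In the panels of Cdk4, Cdk6, Ccne1, Ccne2, Cdk2 and Cdkn2c the 5 WT libraries lie above the 5 NFAT5 KO libraries, and in the other 4 panels the groups overlap.

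Ccnd2 and Ccnd3, the members that encode D cyclins, which couple outside signals to the cycle, did not pass the test in either direction. Ccnd2 (chr6:127125162-127152193, minus strand, GRCm38) encodes cyclin D2, a cyclin that lymphocytes induce on activation. It was at 452, 510.0, 526, 517 and 619.9 CPM in the WT libraries and 583, 398, 621, 558 and 585 CPM in the NFAT5 KO libraries. The groups overlapped through WT 679_5, which stood among the higher NFAT5 KO libraries, and NFAT5 KO 678_5, which was the lowest of all, while the other 4 WT libraries lay below the other 4 NFAT5 KO libraries. The means were 525 ± 60.6 and 549 ± 87.5 CPM (SD, n = 5 each) and the log2 fold change was 0.06 (adjusted p = 0.803, SE 0.12), with a 95% interval of -0.20 to 0.32. The sign of this value was not fixed, since it became -0.01 when transcript lengths were included in the model and -0.0019 without NFAT5 KO library 678_6.

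Ccnd3 (chr17:47505051-47599691, plus strand) encodes cyclin D3, which T cell precursors need for their expansion. It was at 307, 248, 234, 235 and 267 CPM in the WT libraries and 241, 292, 191, 162 and 223 CPM in the NFAT5 KO libraries. The NFAT5 KO libraries reached lower values, but 678_5 stood above 4 of the 5 WT libraries. The means were 258 ± 30.5 and 222 ± 49.7 CPM, the log2 fold change was -0.22 (adjusted p = 0.396, SE 0.14), and its 95% interval, -0.53 to 0.09, does not exclude a fall of the size seen for Cdk4.

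Both kinases that pair with D cyclins fell, with smaller fitted log2 fold changes than the E cyclins, Cdk2 and Cdkn2c. Cdk4 (chr10:127063534-127067920, plus strand), which D cyclins activate in most tissues, was at 371, 297, 316, 359.9 and 319.8 CPM in the WT libraries and 283, 191, 237, 273 and 275 CPM in the NFAT5 KO libraries. The lowest WT library, at 297 CPM, lay just above the highest NFAT5 KO library, at 283 CPM. The means were 333 ± 31.4 and 251.8 ± 38.2 CPM, and the log2 fold change was -0.40 (adjusted p = 0.0416, SE 0.11). This call was the least firm of the 6. It was lost when any 1 of 678_2, 679_3, 679_4 or 679_5 (WT) and 678_6 or 679_2 (NFAT5 KO) was left out, with adjusted p of 0.0545 (without 679_2) to 0.109 (without 678_2), and with the label prefix in the model (adjusted p = 0.0664), while the log2 fold change stayed between -0.47 and -0.33 with 1 library left out.

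Cdk6 (chr5:3341485-3531008, plus strand), the other D cyclin kinase, which is abundant in blood cells, was at 65.4, 59.3, 61.1, 57.3 and 50.5 CPM in the WT libraries and 37.2, 35.7, 45.99, 39.9 and 43.4 CPM in the NFAT5 KO libraries. The 2 groups were apart by a gap between 45.99 and 50.5 CPM, and the spread within each was small, with coefficients of variation of 9.33% and 10.6%. The means were 58.7 ± 5.48 and 40.4 ± 4.27 CPM, and the log2 fold change was -0.54 (adjusted p = 0.00937, SE 0.11). Leaving out any 1 library kept the call, at log2 fold changes of -0.61 to -0.51.

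The E cyclins, which act after the D cyclins and are themselves E2F targets, both fell. Ccne1 (chr7:38097984-38107534, minus strand) was at 57.6, 42.4, 34.4, 52.2 and 37.7 CPM in the WT libraries and 23.96, 17.3, 27.4, 28.5 and 19.5 CPM in the NFAT5 KO libraries. Every NFAT5 KO library was below every WT library, and WT 678_2 and 679_4 were the highest. The means were 44.9 ± 9.78 and 23.3 ± 4.87 CPM, a 1.92-fold higher mean in WT, and the log2 fold change was -0.94 (adjusted p = 0.00690, SE 0.18).

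Ccne2 (chr4:11191351-11204779, plus strand) encodes the second E cyclin and was the scarcer of the pair per length, at a mean of 5.14 TPM against 20.03 TPM for Ccne1. It was at 22.2, 11.1, 8.79, 16.5 and 11.4 CPM in the WT libraries and 8.19, 3.96, 3.94, 3.19 and 5.89 CPM in the NFAT5 KO libraries. The groups were close at their edges, where NFAT5 KO 678_3 at 8.19 CPM met WT 679_3 at 8.79 CPM. The means were 13.99 ± 5.35 and 5.03 ± 2.03 CPM, and the log2 fold change was -1.47 (adjusted p = 0.0128, SE 0.32). Estimated counts behind these values ran from 88 to 664 per library.

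Cdk2 (chr10:128697939-128705031, minus strand), the partner of both E cyclins and later of the A cyclins, was at 53.96, 44.3, 45.9, 58.2 and 35.1 CPM in the WT libraries and 32.9, 15.3, 28.1, 19.04 and 24.1 CPM in the NFAT5 KO libraries. WT 679_5 was the lowest WT library and stood just above NFAT5 KO 678_3, the highest of its group. The means were 47.5 ± 8.97 and 23.9 ± 6.998 CPM, and the log2 fold change was -0.99 (adjusted p = 0.0101, SE 0.21). The calls of Ccne1, Ccne2 and Cdk2 were each kept whichever library was left out, where their highest adjusted p was 0.0422, for Ccne2 without WT 678_2.

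Since E2F factors are known regulators of several of these genes, the RefSeq promoter windows were read for short motifs: 250 bases before to 50 after an annotated start site, in GRCm38.p6. Windows were found for 8 of the 10 members, 10 windows in all, and those of Ccnd2 and Ccne2 were not among them. The letters searched on both strands were 2 forms of the E2F core (TTTCCCGC and TTTGGCGC), the CHR element of late cell cycle genes (TTTGAA) and the core of the NFAT5 binding site (TGGAAA). TTTCCCGC and TTTCCA, the reverse complement of TGGAAA, share their first 5 letters. Cdk2 was the 1 member with an E2F form, TTTCCCGC on the strand opposite to the gene, 140 bases before the start site, and it is printed here 5′ to 3′ on the strand of the gene (chr10:128705002-128705301, minus strand) with the match in capitals.
Cdk2 promoter: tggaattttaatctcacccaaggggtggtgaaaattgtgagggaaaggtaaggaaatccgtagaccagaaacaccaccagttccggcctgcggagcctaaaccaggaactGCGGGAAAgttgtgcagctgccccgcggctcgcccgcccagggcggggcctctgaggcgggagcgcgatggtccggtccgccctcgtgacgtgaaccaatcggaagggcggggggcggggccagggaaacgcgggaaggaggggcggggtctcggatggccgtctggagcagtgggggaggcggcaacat
Either E2F form occurred in 1.565% of the 32851 RefSeq windows, TTTGAA in 17.89% and TGGAAA in 21.43%. No member window held TTTGAA or TGGAAA, which says only that these letters are not in these windows. The same limit holds for the 2 exact E2F forms in the windows without them. Bases before the upstream start of Cdkn2c lay outside its windows and were not searched.

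The inhibitors did not move as 1 group. Cdkn2c (chr4:109660876-109667189, minus strand) encodes an INK4 inhibitor of CDK4 and CDK6 and is itself a known E2F target, and it had the largest fold difference of the 10 members. It was at 29.999, 20.5, 21.1, 36.4 and 29.95 CPM in the WT libraries and 10.3, 4.10, 2.73, 2.64 and 6.89 CPM in the NFAT5 KO libraries. The lowest WT library, 678_4, stood well above the highest NFAT5 KO library, 678_3. The means were 27.6 ± 6.74 and 5.33 ± 3.25 CPM, a 5.18-fold higher mean in WT, and the log2 fold change was -2.37 (adjusted p = 0.00182, SE 0.37). With 1 library left out it ranged from -2.77 to -2.22 and remained called in all 10 fits.

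The fall of Cdkn2c was unequal between its 2 annotated transcripts, which begin at different sites and end at the same one. Cdkn2c-202 starts upstream, at chr4:109667189, and Cdkn2c-201 starts at chr4:109665372. The RefSeq table has a window for each region: 1 whose start site is that of Cdkn2c-201 and another whose start site lies 433 bases inside Cdkn2c-202. They are shown because Cdkn2c-202 was lower in NFAT5 KO without overlap, while the groups overlapped for Cdkn2c-201. The windows hold 44.0% and 73.3% G and C. No letters are in capitals, as neither holds a motif searched. Both are on the minus strand of chromosome 4, at chr4:109665323-109665622 (near the start of Cdkn2c-201) and chr4:109666707-109667006 (inside the first part of Cdkn2c-202).
Cdkn2c window 1: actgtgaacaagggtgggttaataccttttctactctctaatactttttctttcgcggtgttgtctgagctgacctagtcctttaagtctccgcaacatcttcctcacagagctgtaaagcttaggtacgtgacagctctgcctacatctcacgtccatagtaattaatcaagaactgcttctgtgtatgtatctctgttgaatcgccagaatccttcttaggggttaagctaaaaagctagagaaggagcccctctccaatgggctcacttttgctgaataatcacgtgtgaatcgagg
Cdkn2c window 2: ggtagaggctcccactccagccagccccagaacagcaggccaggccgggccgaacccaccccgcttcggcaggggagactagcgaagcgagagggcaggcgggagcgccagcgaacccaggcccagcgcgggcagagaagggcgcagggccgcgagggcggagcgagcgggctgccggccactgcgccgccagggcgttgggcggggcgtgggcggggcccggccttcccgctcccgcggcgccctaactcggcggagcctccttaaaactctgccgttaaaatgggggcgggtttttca

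Cdkn2c-202 was at 28.9, 18.1, 17.8, 32.6 and 25.5 CPM in the WT libraries and 6.64, 2.77, 1.64, 1.29 and 4.66 CPM in the NFAT5 KO libraries, a 7.23-fold higher mean in WT without overlap. Cdkn2c-201 was at 1.06, 2.45, 3.32, 3.86 and 4.46 CPM and 3.62, 1.33, 1.09, 1.34 and 2.23 CPM in the same order, a 1.57-fold higher mean in WT, and its groups overlapped. The transcript from the upstream start thus carried most of the difference. Its share of the gene's estimated counts was 96.5, 88.04, 84.3, 89.4 and 85.1% in WT and 64.7, 67.6, 60.03, 49.03 and 67.6% in NFAT5 KO, with means of 88.7 ± 4.83% and 61.8 ± 7.77%. The 2 groups did not overlap, and the two-sided exact permutation test gave p = 0.00794, the smallest the 10 libraries allow. Adjusted over the 8 members tested it was 0.0635, which is not past the threshold. A single member at the smallest p cannot pass this adjustment, so the adjusted value does not decide on a shift. Without NFAT5 KO 678_3 it became 0.0317, as the share of Ccne2 then also reached the smallest p. It was 0.0635 without any other library. The split of reads between transcripts is an estimate of a model, and the NFAT5 KO values of Cdkn2c-201 rest on 24.4 to 89.0 estimated counts per library.

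**Figure D2:**
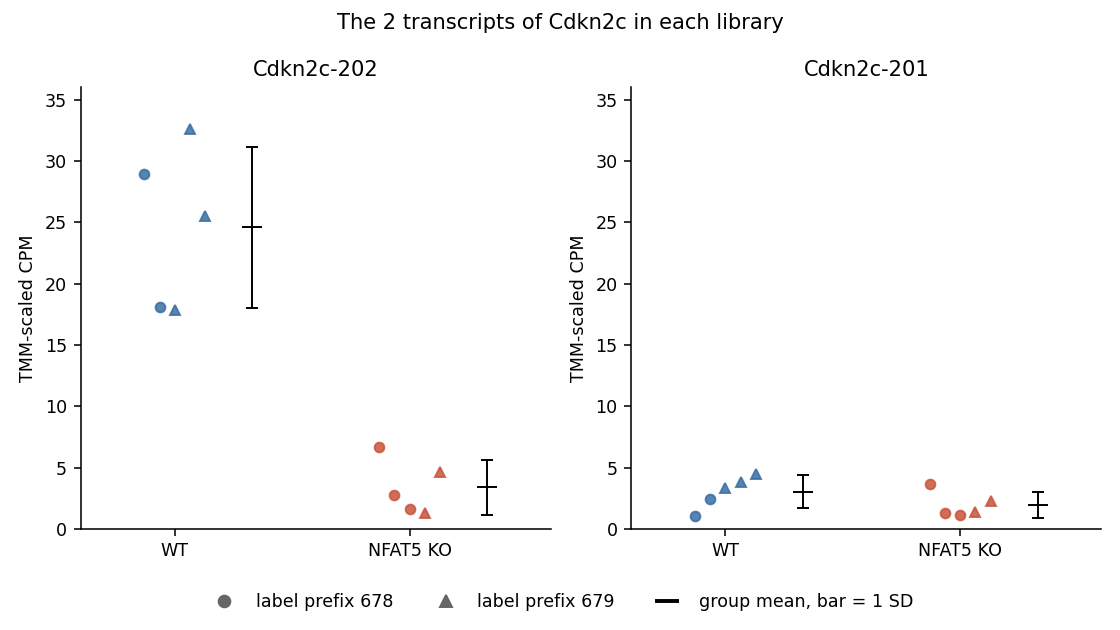
TMM-scaled CPM of the 2 transcripts of Cdkn2c on the same linear axis, each point being 1 library (blue WT, red NFAT5 KO, symbol by label prefix), with mean and SD beside them. Cdkn2c-202 lies between 17.8 and 32.6 CPM for WT and between 1.29 and 6.64 CPM in NFAT5 KO, whereas Cdkn2c-201 stays under 5 CPM in both.

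Cdkn2d (chr9:21288410-21291407, minus strand), the other INK4 inhibitor among the members, was at 75.3, 51.5, 62.8, 77.6 and 55.6 CPM in the WT libraries and 50.8, 69.4, 64.1, 56.1 and 55.9 CPM in the NFAT5 KO libraries. The groups overlapped over nearly their whole range. The means were 64.6 ± 11.6 and 59.3 ± 7.40 CPM, and the log2 fold change was -0.12 (adjusted p = 0.638, SE 0.14), with a 95% interval of -0.42 to 0.17.

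Cdkn1b (chr6:134920401-134925513, plus strand), a CIP/KIP inhibitor that is degraded when T cells enter the cycle and is much regulated at the protein level, was at 2.70, 1.91, 5.16, 7.01 and 1.18 CPM in the WT libraries and 3.14, 9.05, 2.64, 4.55 and 2.85 CPM in the NFAT5 KO libraries. The libraries scattered within each group more than between the groups, and NFAT5 KO 678_5 was the highest. The means were 3.59 ± 2.43 and 4.45 ± 2.68 CPM, with 67.6% and 60.2% as coefficients of variation, and 27 to 247 estimated counts per library. The log2 fold change was 0.31 (adjusted p = 0.774, SE 0.51), and its 95% interval, -0.80 to 1.41, holds falls and increases of more than 1.5-fold. Its sign turned without NFAT5 KO 678_5 (-0.15).

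**Figure D3:**
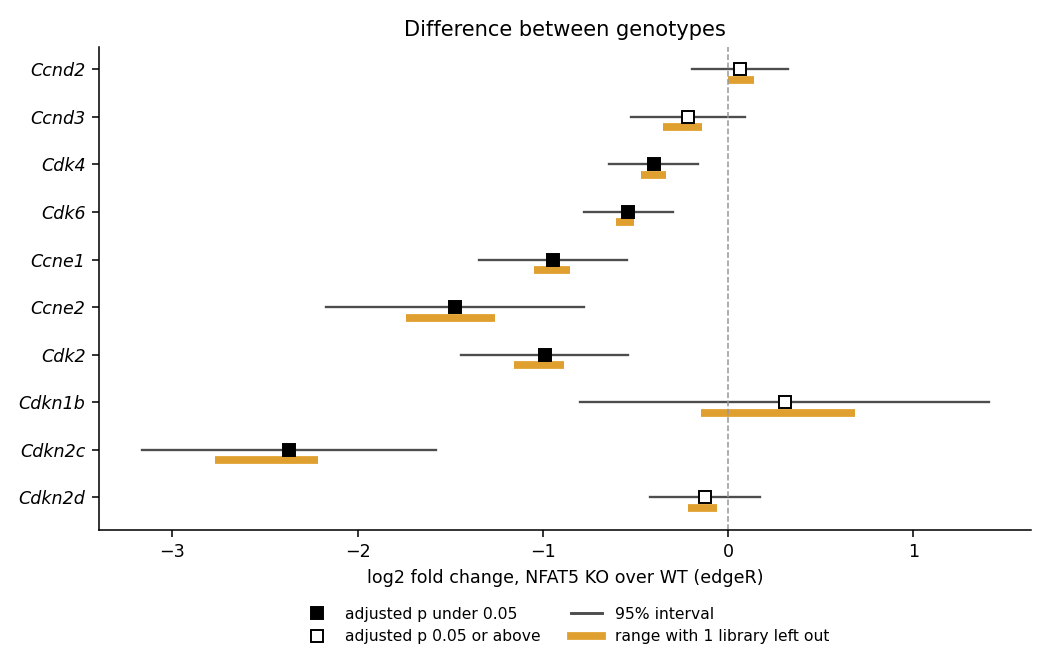
The log2 fold change of NFAT5 KO over WT for each member (squares, filled where the adjusted p is under 0.05), its 95% interval (thin line) and the range when 1 library at a time is left out (thick line). The 6 filled squares lie left of 0 with their intervals, from -0.40 for Cdk4 to -2.37 for Cdkn2c, and the intervals of the 4 open squares cross 0.

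To ask whether members of a role moved equally, 6 pairs were compared as log2 ratios of counts within each library, a value that does not depend on the scaling of libraries. The Cdkn2c/Cdkn2d ratio was -1.33, -1.33, -1.57, -1.09 and -0.89 in WT and -2.31, -4.08, -4.55, -4.41 and -3.02 in NFAT5 KO. All NFAT5 KO libraries had less Cdkn2c per Cdkn2d than any WT library, and the difference in log2 ratio was -2.43 (two-sided exact permutation p = 0.00794, the smallest they can give, and 0.0238 adjusted over the 6 pairs). The Cdkn1b/Cdkn2c log2 ratio was -4.66 to -2.04 in WT and -1.71 to 1.14 in NFAT5 KO, a difference of 2.97 with the same exact and adjusted p. Its sign is opposite because Cdkn2c is the divisor here. Cdkn1b itself was not called, so this pair holds the same fall of Cdkn2c and is not a separate result. Between the kinases, the Cdk2/Cdk4 ratio was -2.78, -2.75, -2.78, -2.63 and -3.19 in WT and -3.10, -3.64, -3.08, -3.84 and -3.51 in NFAT5 KO. The groups overlapped through WT 679_5, and the difference in log2 ratio was -0.61 (exact permutation p = 0.0238, adjusted 0.0476), a fall of Cdk2 beyond that of Cdk4. The adjusted p rose to between 0.0635 and 0.0952 when 1 of 678_2, 678_4, 679_3 or 679_4 (WT), or of 679_2 or 679_6 (NFAT5 KO), was left out, which also leaves fewer arrangements.

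The 3 other pairs did not pass. The Ccnd2/Ccnd3 log2 ratio was 1.02 ± 0.27 in WT and 1.32 ± 0.53 in NFAT5 KO (exact permutation adjusted p = 0.325). Without NFAT5 KO 678_5, the library lowest in Ccnd2, the difference grew from 0.29 to 0.51 with an adjusted p of 0.0159, so that 1 library decides this ratio. Ccne1/Ccne2 differed by 0.54 (adjusted 0.238) and Cdk4/Cdk6 by 0.13 (adjusted 0.325) by the same exact permutation test, both with overlapping groups.

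Among the other leading transcripts, Ccne2-202 came nearest to a shift. It held 91.3, 48.6, 47.01, 92.7 and 70.8% of the Ccne2 counts in WT and 57.3, 31.9, 0, 27.6 and 11.01% in NFAT5 KO, with overlapping groups. The exact permutation p was 0.0238 (0.0952 adjusted), and without NFAT5 KO 678_3 the adjusted p was 0.0317. Ccne2-207, the other main transcript, starts upstream. For Ccnd2, Cdk2, Cdk4, Cdk6, Cdkn1b and Cdkn2d the shares of the leading transcript overlapped between the groups, with adjusted p of 0.365 to 0.921 by the same exact permutation test. Ccne1 and Ccnd3 had no other transcript of at least 10% on average over the 10 libraries and were not tested. The 2 main transcripts of Ccnd3, described after their values were seen, differed in opposite directions. Ccnd3-205 held 75.0% to 86.1% of Ccnd3 counts in WT and 70.3% to 75.6% in NFAT5 KO, at 209 ± 32.4 and 164 ± 40.1 CPM. Ccnd3-215 held 4.23% to 8.04% and 7.73% to 12.1%, at 14.2 ± 3.33 and 22.8 ± 4.61 CPM, and the groups overlapped for both shares. Of the Cdk4 counts, 59.0% to 63.0% were assigned to protein-coding transcripts, the rest to a nonsense-mediated decay transcript, a retained intron and other noncoding forms, against 85.3% or more for every other member.

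Levels of different genes can be compared only per length, and the order depended on how length was taken. In summed TPM, which uses the length of each transcript, the mean over the 10 libraries was 919 for Ccnd2, 511 for Cdk4, 233 for Ccnd3, 68.7 for Cdkn2d, 38.6 for Cdk6, 22.6 for Cdk2, 20.03 for Ccne1, 13.4 for Cdkn2c, 5.14 for Ccne2 and 2.12 for Cdkn1b. The order of the means was the same within WT and within NFAT5 KO. Cdk4, Ccnd3, Cdkn2d and Cdk6 followed each other with ranges over the libraries that did not overlap, and the other neighbours did overlap. Thus, among the members, Ccnd2, Ccnd3 and Cdk4 were the most abundant, and the E cyclins, Cdk2 and 2 of the 3 inhibitors stood low. The counts of Ccnd2 and Cdk4 were spread over short transcripts as well, with a TPM-weighted mean effective length of 612 and 595 bases against 5897 for the full-length Ccnd2-201. With counts divided by the effective length of the longest coding transcript instead, an alternative chosen after the values were seen, Cdk4 led at 173 CPM per kilobase, Ccnd3 followed at 142 and Ccnd2 at 91.0, and Cdk6, whose longest transcript has 11807 effective bases, went from the fifth place to place 8 at 4.20.

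**Figure D4:**
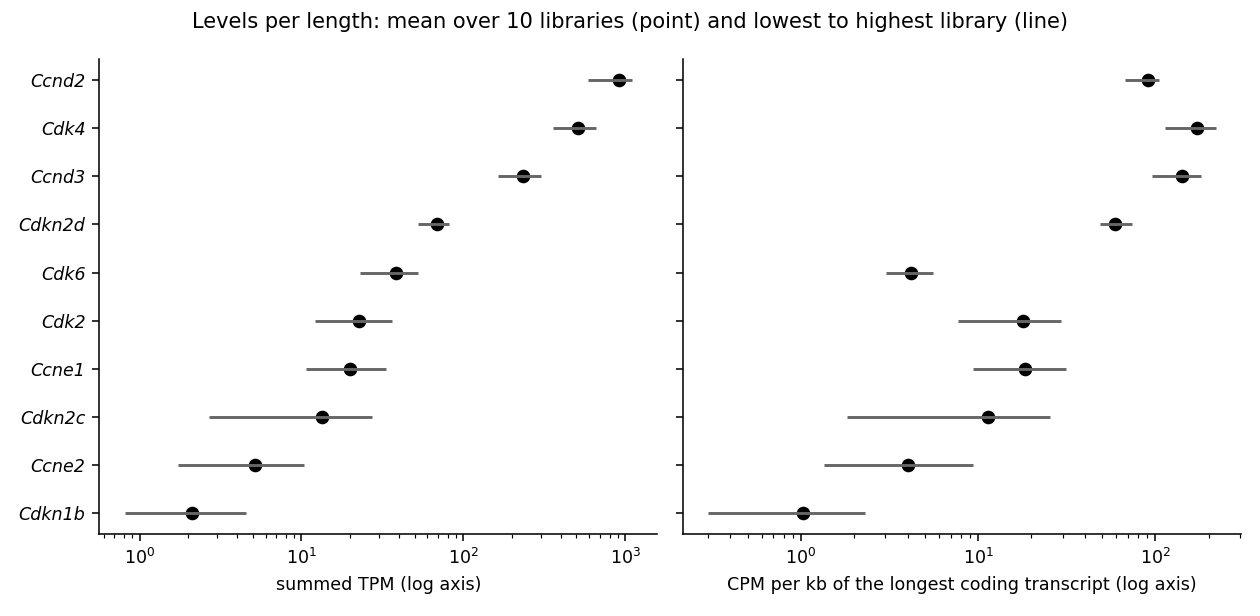
Levels of the 10 members per length on log axes, as summed TPM (left) and as CPM per kilobase of the longest coding transcript (right), with the mean of 10 libraries as a point and the lowest to highest library as a line. Ccnd2 is first on the left at 919 TPM and the third on the right at 91.0 CPM per kilobase, and Cdkn1b is last on both.

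Of 32 other genes of the pathway (further cyclins, inhibitors, retinoblastoma proteins, E2F and DP factors, CDK-activating and degradation factors), 30 were tested. In NFAT5 KO 9 of these fell, beside 5.63% of all genes tested, 2 rose, beside 3.38%, and 19 were not called, and their median log2 fold change was -0.07, beside 0.02 over all genes tested. E2f1 and E2f2, activator E2F factors, had the smallest p-values of those that fell. E2f1 went from 54.2 ± 8.95 CPM in the WT group to 13.9 ± 4.04 CPM in the NFAT5 KO group (log2 fold change -1.97, adjusted p = 0.000258) and E2f2 from 36.2 ± 7.80 to 8.57 ± 3.04 CPM (-2.08, adjusted p = 0.000353). The 2 that rose were Myc, a growth factor target that raises many cell cycle genes, and Cdkn1a, a CIP/KIP inhibitor and p53 target. Myc was at 230 ± 52.2 CPM in the WT group and 357 ± 70.7 CPM in the NFAT5 KO group (0.64, adjusted p = 0.0312), and Cdkn1a at 58.7 ± 25.3 and 146 ± 56.5 CPM (1.32, adjusted p = 0.0450). Among the members and these named genes, the inhibitors thus went different ways, with Cdkn2c lower, Cdkn1a higher, and Cdkn1b and Cdkn2d not called. The call of Cdkn1a lay near the threshold, and fits with libraries left out were not read for it. The 2 genes not tested were the remaining INK4 genes, named after their values were seen: Cdkn2b had 0 counts in all 10 libraries, where 3 counts correspond to 0.0955 to 0.134 CPM, and Cdkn2a had 3 counts in all.

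The genes of DNA replication and mitosis listed here as S and M phase genes were also lower in NFAT5 KO. All 22 S and M phase genes listed (such as Mki67, Mcm2 and Cdc20) fell, beside 5.63% of all genes tested. Their median log2 fold change was -2.21, beside 0.02 over all genes tested. This list was chosen with earlier results of these data known. Its mean log2 CPM was 6.83 to 7.48 in WT and 4.47 to 5.67 in NFAT5 KO libraries. NFAT5 KO 678_3, the highest of its group on that list, was also the highest of its group in Ccne2, Cdk2, Cdk4 and Cdkn2c, and WT 678_2 and 679_4, the highest of theirs, led in Ccne1, Ccne2, Cdk2, Cdk4 and Cdkn2c. Not all members that fell were led by these libraries. Cdk6 was at 37.2 CPM in NFAT5 KO 678_3, above 678_5 alone in its group, and at 57.3 CPM in WT 679_4, above 679_5 alone. Ccne1 in NFAT5 KO 678_3 was below 678_6 and 679_2. For Cdkn2d the same WT libraries led their group, at 75.3 and 77.6 CPM, but NFAT5 KO 678_3 was the lowest of its own, at 50.8 CPM, and for Ccnd2 WT 678_2 was the lowest WT library. Macrophage markers ran in the same direction, with a mean log2 CPM of 2.06 to 3.35 in WT and -1.07 to 1.97 in NFAT5 KO, so their level and the genotype cannot be told apart in these libraries. With it as a covariate no member was called by edgeR and 6 genes were called in the whole table. An unadjusted p under 0.05 was found for 3 members, beside 1163 of the 13081 genes. The log2 fold change of Cdkn2c was then -1.54, that of Ccne1 -0.98 and that of Cdk4 -0.07.

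**Figure D5:**
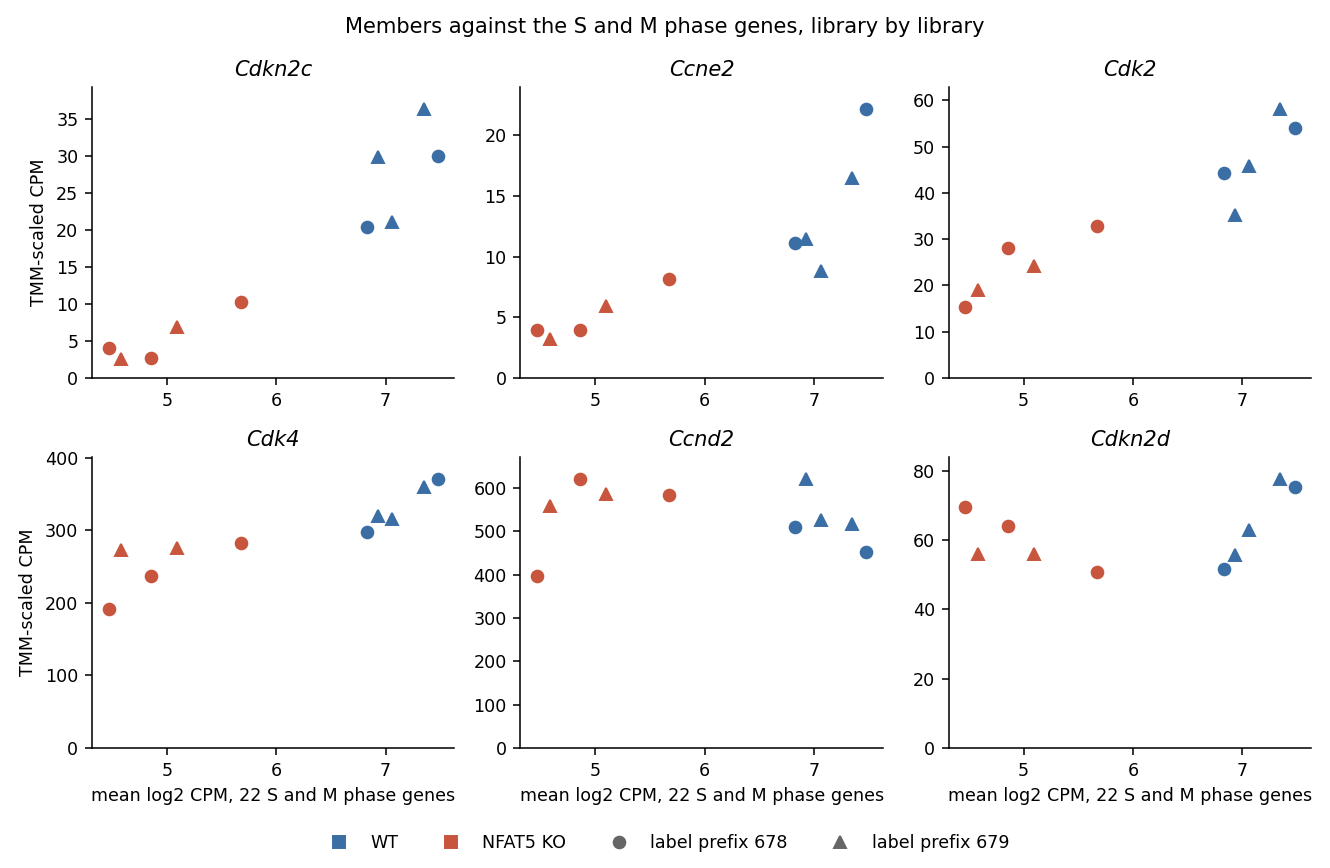
CPM of 6 members (linear axes from 0) against the mean log2 CPM of the 22 S and M phase genes, 1 point per library, blue for WT and red for NFAT5 KO, with the symbol for the label prefix. Cdkn2c, Ccne2, Cdk2 and Cdk4 are high where the list is high, at 6.83 to 7.48, and the groups overlap for Ccnd2 and Cdkn2d. Cdk6 and Ccne1, which also fell, are not drawn. Within groups, Cdkn2c, Ccne2, Cdk2 and Cdk4 did not keep the full order of the list. In WT, for example, the list was lowest in 678_4, but Cdk2 was lowest in 679_5, at 35.1 CPM against 44.3 CPM in 678_4.

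Within each label prefix the log2 fold changes of the 6 members that fell were negative, from -2.15 (Cdkn2c) to -0.50 (Cdk4) among the libraries of prefix 678 and from -2.62 (Cdkn2c) to -0.28 (Cdk4) among those of prefix 679. With 2 or 3 libraries a group, edgeR called none of the members among the libraries of prefix 678 and Cdkn2c alone among those of prefix 679 (adjusted p = 0.0427). Over all genes it called 0 of 13747 in prefix 678, and 71 higher and 254 lower of 13966 in prefix 679. An unadjusted p under 0.05 was found for 6 members in each prefix, beside 1449 of the 13747 genes and 2242 of the 13966 genes. The interaction of genotype and prefix was not called for any of the 13081 genes by edgeR, with 377 at an unadjusted p under 0.05, and the smallest unadjusted p of a member was 0.230, for Cdkn1b.

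The genes whose log2 CPM followed a member most closely over the 10 libraries were taken for the 3 members with the smallest p-values. For Cdkn2c they were Tcf19 (Pearson r = 0.988), Birc5 (0.988) and Cdkn3 (0.987). For Ccne1 they were Enkd1 (0.988), Orc2 (0.980) and Lrr1 (0.965), and for Cdk6 Iigp1 (0.968), Sema4a (0.966) and Chtf18 (0.957). All 9 had a lower fitted level in NFAT5 KO, and 8 of them were called (Orc2 had an adjusted p of 0.0891). These correlations include the difference between the genotypes, which all 3 members show, and are descriptions. The direction and the calls of the 9 genes thus follow largely from how they were chosen.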

How the data were processed

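RNA was measured in 10 libraries of tumour CD8 T cells. Per library, the authors deposited 1 table of 140919 transcripts that holds, per the file headers, the length and effective length in bases, TPM and the estimated count. These estimated counts were left unnormalized by the authors, and their TPM is scaled by effective length and library. The submitters' processing notes name Salmon 0.14.1 and, as builds, GRCm38.p6 and mm10. Strandedness, trimming and annotation release: not given in the sources used here. Counting without a known strand and shared reads leave overlapping genes and near-identical transcripts uncertain.

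Transcripts were matched to GENCODE M21 (99.38%), and those unmatched held at most 0.228% of counts. The estimated counts of a gene's transcripts were added and rounded. Genes passing filterByExpr (13081) were fitted with edgeR 4.0.16 in R 4.3.3: TMM factors (0.968 to 1.03), robust quasi-likelihood test, Benjamini-Hochberg adjustment over all genes, threshold 0.05, no covariate. SE is the log2 fold change over the square root of F, and 95% intervals use the t distribution with the fit's degrees of freedom. Log2 CPM used a prior count of 2. Ratios and the share of the leading transcript (members with another transcript of at least 10%) had exact permutation tests. The scripts were tested on simulated data. Alternatives used DESeq2 1.42.0 and limma 3.58.1, among others. No 2 libraries had counts that agreed within sampling noise. Skp1 was matched through a RefSeq synonym.

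The members and gene lists were chosen with earlier results of these data known. Named are all members, Nfat5, the 3 genes most correlated with each of the 3 members of smallest p, and, of the other pathway genes, the 2 of smallest p in each direction. Library totals of 22444310 to 32001285 estimated counts limit precision. Floors cover counting error only.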

Additional observations from a re-analysis of the deposited data

Results flagged for a closer look

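In 48 groups of 5 libraries (members' CPM, pair ratios and leading transcript shares in each genotype), 6 held 1 library far from the other four by Dixon's criterion, and chance alone flags about 1 in 20 groups. NFAT5 KO 678_5 had the lowest Ccnd2, 397.5 CPM against 558 to 621 in the rest of its group. WT 678_2 had a Ccnd2/Ccnd3 log2 ratio of 0.56, against 1.04 or more in the other WT libraries, and WT 679_5 a Cdk2/Cdk4 log2 ratio of -3.19, against -2.78 or higher. The remaining 3 concern transcript shares. Ccnd2-201 held 44.3% of Ccnd2 counts in WT 679_4 (49.7% or more elsewhere in WT), Cdk4-205 held 27.9% of Cdk4 counts in NFAT5 KO 678_6 (31.3% or more elsewhere in NFAT5 KO), and Cdkn1b-201 held 100.0% of Cdkn1b counts in NFAT5 KO 678_6 (45.4% to 53.7% elsewhere in NFAT5 KO), a gene with 59 estimated counts in that library.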

How the results depend on the processing

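The 6 members that fell kept that number under DESeq2 size factors, library size alone, both other count filters, a length offset, the DESeq2 Wald test, limma-voom and a melanoma marker covariate (which rests on Pmel). It became 5 with the label prefix as a block, 0 in prefix 678 alone, 1 in prefix 679 alone and 0 with the macrophage covariate, and 5 to 6 with 1 library left out. In the whole table, 442 genes higher and 737 lower became 811 and 1082 by the DESeq2 Wald test, 0 and 0 in prefix 678 alone (1449 at an unadjusted p under 0.05 by edgeR), 71 and 254 in prefix 679 alone, 0 and 6 with the macrophage covariate, and, with single libraries omitted, 202 to 490 and 494 to 786, the fewest without WT 678_2. The number of leading transcript shares past the threshold went from 0 to 2 without NFAT5 KO 678_3 and ranged from 0 to 2 with 1 library left out. A single share at the smallest exact p cannot pass the adjustment over 8 members. Signs turned for 3 values that were not called. Ccnd2 became -0.013 with the length offset and ranged from -0.0019 to 0.14 with 1 library left out (-0.0019 without NFAT5 KO 678_6). Cdkn1b became -0.28 in prefix 679 alone and -0.68 with the macrophage covariate, and ranged from -0.15 to 0.69 with 1 library left out. The Cdk4 leading share difference ranged from -0.683 to 0.977, with -0.0778 without WT 678_4, -0.163 without NFAT5 KO 679_2 and the lowest value without WT 679_5. Apart from smaller numbers of libraries, the cause was not tested. No paired analysis was possible because no library number of a prefix occurs in both genotypes. Counts were low for Cdkn1b (27 to 247 per library) and the minor Cdkn2c transcript, which limits both.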
